A study of Mus musculus with 2 samples.

Results

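Fos-low satellite glia are the satellite glial cells of mouse dorsal root ganglia in which the transcript of the immediate early gene Fos was low or not detected. They were chosen by their own counts. A barcode belonged to them if it held at least 500 genes and 2000 UMIs, under 20% mitochondrial UMIs, under 25 UMIs per 10000 of the neuronal genes Uchl1, Tubb3, Snap25 and Stmn2 together, at least 40 of Fabp7 and under 20 of Fos. Of 20585 deposited barcodes, 15142 passed the limits on genes, UMIs and mitochondrial share, 8798 of these were non-neuronal, and 3161 were Fos-low satellite glia. Replicate 1 held 2020 of them and replicate 2 held 1141. They were set against the other 5637 non-neuronal barcodes, and against Fos-high satellite glia (Fabp7 at 40 or more and Fos at 20 or more), non-myelinating Schwann-like and myelinating Schwann-like barcodes within them.

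The study profiled L4-5 ganglia of wildtype mice aged 8 weeks from an acetone-ether-water group, a model of dry and itching skin, in 2 droplet-based single-cell libraries. Both libraries carried that treatment, and no untreated group is used here, so no value speaks to the treatment. Ganglia were digested with Liberase and papain at 37 °C before capture. The labels do not say whether the replicates are separate animals or pools, and they name neurons as the cell type, which the barcodes described here are not by their markers.

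Satellite glia wrap the cell bodies of sensory neurons as a thin sheath, buffer the potassium and clear the glutamate and GABA around them, and couple to one another through gap junctions. They share their neural crest origin with Schwann cells, which attend to axons. Fos and its relatives are induced within minutes by depolarisation, growth factors, injury or the handling of a tissue. The libraries do not show when in the life of these cells Fos was or was not induced.

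Fabp7, the brain-type fatty acid binding protein that marks satellite glia, had a median of 161 UMIs per 10000 in Fos-low satellite glia of replicate 1 and 164 in replicate 2. Between 40 and 60 per 10000 lay 148 and 71 of them in replicates 1 and 2, and 140 and 85 otherwise similar barcodes at 20 to 40 stayed outside. Fos stood at 15 to 20 per 10000 in 27 and 110 of them, while 34 and 84 Fos-high satellite glia lay at 20 to 25. The neuronal limit alone kept out 149 and 263 barcodes. Since every gene helped to fix who belongs, or was counted in the same barcodes, all comparisons here are descriptions and carry no test.

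Depth was similar across the satellite glia. Fos-low satellite glia held a median of 8505 UMIs (2877 genes) in replicate 1 and 7296 UMIs (2672 genes) in replicate 2, against 7794 and 7582 UMIs in Fos-high satellite glia. Schwann-like barcodes were shallower, with medians between 3583 and 4636 UMIs. The libraries shared 24 barcode sequences, of which 6 were Fos-low satellite glia in replicate 1 and 1 in replicate 2, including 1 in both.

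The share of Fos-low satellite glia differed between the libraries. They made up 93.4% of the Fabp7-high non-neuronal barcodes of replicate 1 (exact 95% interval 92.3 to 94.4%) and 51.2% of those of replicate 2 (49.1 to 53.3%), where the intervals cover counting error only. Of all barcodes passing the quality limits they were 30.8% (29.7 to 32.0%) and 13.3% (12.6 to 14%), which is 22.1% ± 12.4 (SD, n = 2 libraries). The number of Fabp7-high barcodes was close in both libraries, at 2163 and 2227. In replicate 1, 1209 Fabp7-high barcodes had no Fos UMI and 20 had 60 or more per 10000. In replicate 2, 181 had none and 530 had 60 or more.

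Fos itself, whose value chose the barcodes, is given for scale in CPM, the count of its UMIs scaled to 1000000 UMIs of the set, with UMIs summed over barcodes, replicate 1 before replicate 2 here and in all pairs of values. It stood at 178 and 592 CPM in Fos-low satellite glia and at 4069 and 6302 CPM in Fos-high satellite glia. Among the larger other classes Fos stood at 5212 and 8360 CPM in non-myelinating Schwann-like, 4451 and 5391 CPM in myelinating Schwann-like and 4185 and 5596 CPM in endothelial-like barcodes. The share of barcodes at or above the Fos limit was 61.3% and 71.1% in endothelial-like and 52.8% and 54.6% in myelinating Schwann-like barcodes, while Fabp7-high barcodes at or above it numbered 143 of 2163 and 1086 of 2227. Fos stood at 848 and 1053 CPM in erythroid-like, 2322 and 1087 CPM in B cell-like, 949 and 910 CPM in T or NK-like, 1460 and 1719 CPM in neutrophil-like and 1979 and 1927 CPM in macrophage-like barcodes. Of erythroid-like barcodes 11.3% and 11.8% reached the limit. Free RNA that gives every barcode a few Fos UMIs cannot be told apart from low expression in barcodes below the limit.

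**Figure D1:**
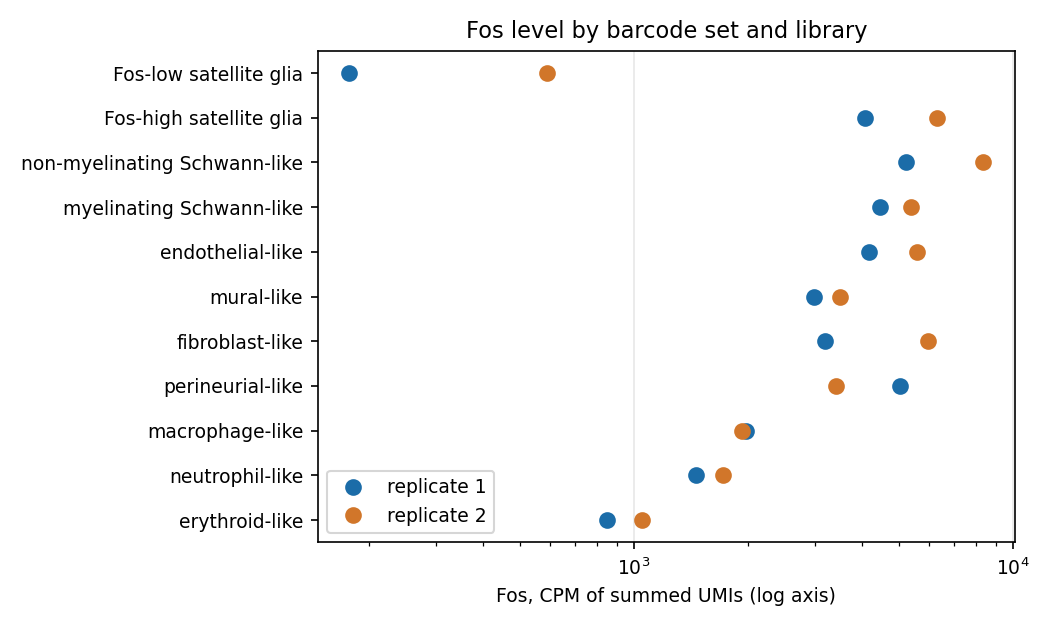
Fos in CPM of summed UMIs (log axis) for Fos-low satellite glia, Fos-high satellite glia and other non-neuronal classes, with 1 point per library. Fos-low satellite glia, chosen for low Fos, sit at 178 and 592 CPM, and the gap between the libraries is wide in them, while endothelial-like barcodes sit at 4185 and 5596 CPM.

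The satellite glia label was described with 10 markers, all of which were detected. Fabp7, whose limit chose the barcodes, is among them, so its detection was fixed by the rule. Apoe, the apolipoprotein that carries lipid between glia and neurons, reached 94756 and 95458 CPM in Fos-low satellite glia, against 1593 and 2011 CPM in endothelial-like barcodes. Those barcodes should lack satellite glial transcripts. They were also chosen by class scores that used all 10 markers, so contrasts with them follow in part from the choice of sets. Ednrb, the endothelin receptor type B, had 1050 and 949 CPM against 50.7 and 49.6 CPM in endothelial-like barcodes. Acsbg1, an acyl-CoA synthetase, had 380 and 491 CPM against 4.15 and 6.28 CPM, and Hes5, a transcriptional repressor of the Notch pathway, had 75.9 and 71.1 CPM against 0.488 and 1.21 CPM. For each of these scoring markers both libraries of Fos-low satellite glia lay above both of the endothelial-like barcodes. How many of all genes lay so is not given here, so this order is a description only. On GRCm38 with GENCODE M21, these genes lie at chr7:19696109-19699188 (Apoe), chr14:103814625-103844402 (Ednrb), chr9:54604877-54661870 (Acsbg1) and chr4:154960923-154962371 (Hes5). Mean Ednrb over the libraries was 999 CPM (SD 71.4) in Fos-low satellite glia and 723 CPM (SD 285) in non-myelinating Schwann-like barcodes. Its level thus separated these sets less. At equal depth, a UMI of Ednrb was seen in 81.5% and 80.9% of Fos-low satellite glia and 30.9% and 47.8% of non-myelinating Schwann-like barcodes.

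Kcnj10, an inward rectifier potassium channel of satellite glia and astrocytes, had 297 and 269 CPM in Fos-low satellite glia against 8.05 and 5.87 CPM in endothelial-like barcodes. The chondroitin sulphate proteoglycans Ptprz1 and Bcan followed the same order, with 868 and 767 CPM of Ptprz1 against 15.1 and 12.1 CPM, and 623 and 702 CPM of Bcan against 12.7 and 11.3 CPM. The remaining markers separated satellite glia less. Fbxo2, part of a ubiquitin ligase, had 146 and 190 CPM against 38.3 and 55.3 CPM. It hardly separated Fos-low satellite glia from non-myelinating Schwann-like barcodes, with means of 168 CPM (SD 30.4) and 145 CPM (SD 6.46). At equal depth, a UMI of Fbxo2 was seen in 26.1% and 32.7% of the former and 28.2% and 23.9% of the latter. Cdh19, a cadherin of the neural crest lineage, had 164 and 128 CPM in Fos-low satellite glia against 616 and 366 CPM in non-myelinating Schwann-like barcodes.

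With each barcode scored against the markers of each class, 65.7% and 68.0% of Fos-low satellite glia scored highest for satellite glia, and 129 and 106 barcodes scored highest for another class, of which 71 and 51 were non-myelinating Schwann. The remainder reached no score of 0.5. The scoring rule was chosen after the data were seen. Its satellite glia markers include Fabp7, so the shares scoring highest for satellite glia follow in part from the Fabp7 limit. After thinning each barcode to 2000 UMIs, 10.6% and 11% of Fos-low satellite glia had a UMI of Hes5, against 0 of 333 endothelial-like barcodes in replicate 1, which allows up to 0.901%, and 0.363% in replicate 2, where the endothelial-like barcodes had median depths of 11137 and 8330 UMIs. Unthinned, the shares for Hes5 were 26.6% and 24.2% of Fos-low satellite glia against 0.601% and 1.09%. Acsbg1 was seen after thinning in 45.5% and 56.0% against 0.300% and 0.544%, and unthinned in 82.4% and 88.3% against 3.00% and 5.44%. For Hes5 and Acsbg1 the shares in Fos-low satellite glia stood above those in endothelial-like barcodes in both libraries. Both genes were scoring markers, so this contrast follows in part from the choice of sets.

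Summed markers of other cell types were above 0, and not all of them were low. In Fos-low satellite glia the summed levels were 2095 and 2233 CPM for 14 myelinating Schwann markers, 33.5 and 85.7 CPM for 10 endothelial, 92.4 and 153 CPM for 8 neutrophil, 483 and 1784 CPM for 7 erythroid and 2646 and 3186 CPM for 11 neuronal markers. In Fos-low satellite glia 12 non-myelinating Schwann markers summed to 1589 and 1765 CPM, against 871 and 1056 CPM in all other non-neuronal barcodes. In non-myelinating Schwann-like barcodes they summed to 5799 and 3896 CPM. The neuronal sum lay below the 3416 and 3523 CPM of all other non-neuronal barcodes. The neuronal markers include Uchl1, Tubb3, Snap25 and Stmn2, which the neuronal limit caps. The myelin gene Pmp2 had no UMI in Fos-low satellite glia, which allows up to 0.163 and 0.347 CPM. The lymphocyte genes Cd3d and Nkg7 were also at 0 there. Fos-high satellite glia of replicate 1, only 143 barcodes, stood apart with 6354 CPM of the myelinating Schwann, 2589 CPM of the neutrophil and 2032 CPM of the erythroid markers. The part of these transcripts in the comparisons was not tested.

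**Figure D2:**
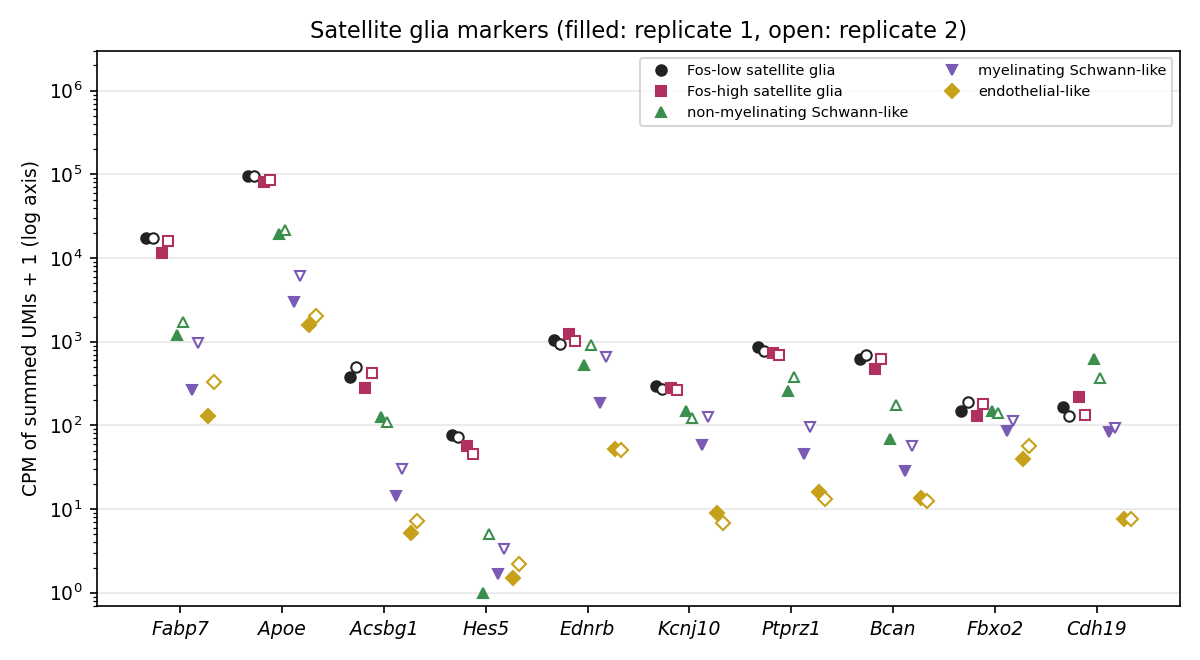
Levels of 10 satellite glia markers in CPM of summed UMIs plus 1 (log axis) in 5 barcode sets, filled symbols for replicate 1 and open symbols for replicate 2. Hes5 stands at 75.9 and 71.1 CPM in Fos-low satellite glia and at no more than 4.06 CPM in either Schwann-like set, and Cdh19 is highest in non-myelinating Schwann-like barcodes, at 616 and 366 CPM.

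A gene is called different here when its level differed at least 2-fold in the same direction in both libraries, with at least 20 CPM on the higher side in both. Against all other non-neuronal barcodes, 187 of 6749 genes were higher in Fos-low satellite glia (2.77%) and 786 lower (11.6%). By list, 15 of 24 cholesterol synthesis, 9 of 27 lipid handling and 6 of 14 potassium buffering genes were higher, and 0, 2 and 1 were lower. Of 16 Notch pathway genes 3 were higher and 4 lower, and of 42 immediate early genes 0 were higher and 41 lower. Low Fos chose Fos-low satellite glia, so the immediate early count follows in part from the choice. The other barcodes held 143 Fos-high satellite glia of 2337 in replicate 1 and 1086 of 3300 in replicate 2. Set against Fabp7-low barcodes alone, a choice made after the data were seen, 523 genes were higher and 1032 lower, and all 187 were among the 523. Without barcodes scoring highest for another class, also added after the data were seen, 164 genes were higher and 775 lower.

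The genes named from this comparison were those with the largest smaller fold of the libraries at 50 CPM or more. Hes5 had 75.9 and 71.1 CPM in Fos-low satellite glia against 4.90 and 18.4 CPM in the other barcodes, a log2 difference of 2.80 ± 1.28 (SD, n = 2 libraries). Aqp4, the water channel of astrocyte endfeet, had 72.6 and 86.8 CPM against 5.31 and 28.1 CPM, and Mlc1, an astrocyte membrane protein that works with ion channels and adhesion proteins in volume control, had 52.1 and 63.2 CPM against 3.48 and 21.1 CPM. Cdh15, a cadherin better known from muscle, had 52.4 and 80.01 CPM against 4.31 and 26.4 CPM.

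Mmd2, a membrane protein of the progestin and adipoQ receptor family, was the most abundant gene so named, at 733 and 939 CPM against 104 and 321 CPM. Rlbp1, a retinaldehyde binding protein of glia in the retina, had 113 and 105 CPM against 15.8 and 36.4 CPM. Col28a1, a collagen of peripheral nerve glia, had 242 and 256 CPM against 65.3 and 91.0 CPM. Catsperz, named for a subunit of the sperm calcium channel, had 115 and 148 CPM against 16 and 51.4 CPM. Acsbg1, Hey2, Dhcr7 and Mvd completed the named genes and are described with their groups. In all of the genes with values here, replicate 2 had the higher level among the other barcodes.

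The genes lowest in Fos-low satellite glia belonged to other cell types. The neutrophil granule genes Ngp and Camp had 1.36 and 3.24 CPM and 1.52 and 4.28 CPM in Fos-low satellite glia, against 403 and 306 CPM and 428 and 380 CPM in the other barcodes. Flt1, a VEGF receptor of endothelium, had 5.15 and 11.4 CPM against 719 and 538 CPM. Igfbp7, a secreted protein of vessels, had 28.6 and 42.4 CPM against 2047 and 1642 CPM. Slco1a4, Cd93, Ly6c1, Cxcl12, Slfn5, Gpihbp1, Abcb1a and Esam, most of them genes of endothelium, made up the rest of the named set.

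Most cholesterol synthesis genes were higher in Fos-low satellite glia than in non-myelinating Schwann-like barcodes, and fewer than in myelinating ones. Cells build cholesterol from acetyl-CoA through mevalonate, squalene and lanosterol, and the enzymes are transcribed together under SREBP-2. Of 24 listed genes, all were compared, and 17 were higher than in non-myelinating Schwann-like barcodes, where 3.57% of 6496 genes were higher and 7.24% lower. Against myelinating Schwann-like barcodes, which build myelin, 11 of 24 were higher, where 6.91% of 6368 genes were higher and 7.35% lower. None of the 24 was lower in either comparison. The median log2 difference was 1.33 and 1.02, against −0.20 and −0.14 over all genes compared.

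Early in the pathway, Hmgcs1, which makes HMG-CoA, had 1802 and 1797 CPM in Fos-low satellite glia, against 472 and 573 CPM in non-myelinating and 863 and 796 CPM in myelinating Schwann-like barcodes. Mvd, which makes isopentenyl diphosphate, had 114 and 149 CPM, against 29.1 and 32.5 CPM in non-myelinating and 34.1 and 46.0 CPM in myelinating Schwann-like barcodes. The levels of these enzymes in Fos-low satellite glia lay above those of both Schwann-like sets in both libraries.

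The late enzymes are those of the sterol rings. Lss, which closes the ring of lanosterol, had 92.4 and 114 CPM, against 12.7 and 36.6 CPM in non-myelinating and 21.3 and 28.3 CPM in myelinating Schwann-like barcodes. Dhcr7, which carries out the last step of one branch, had 124 and 180 CPM, against 29.1 and 32.5 CPM in non-myelinating and 20.7 and 42.4 CPM in myelinating Schwann-like barcodes. Tm7sf2, a sterol reductase, had 117 and 115 CPM, against 31.6 and 20.3 CPM and 24.3 and 16.5 CPM in the same order. The regulator Srebf2 was close in all sets, with 151 and 137 CPM in Fos-low satellite glia against 130 and 130 CPM in non-myelinating and 143 and 111 CPM in myelinating Schwann-like barcodes. Against Fos-high satellite glia none of the 24 genes reached 2-fold, and the median log2 difference was 0.22. Of all 5878 genes compared there, 1.16% were lower and 0% higher.

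**Figure D3:**
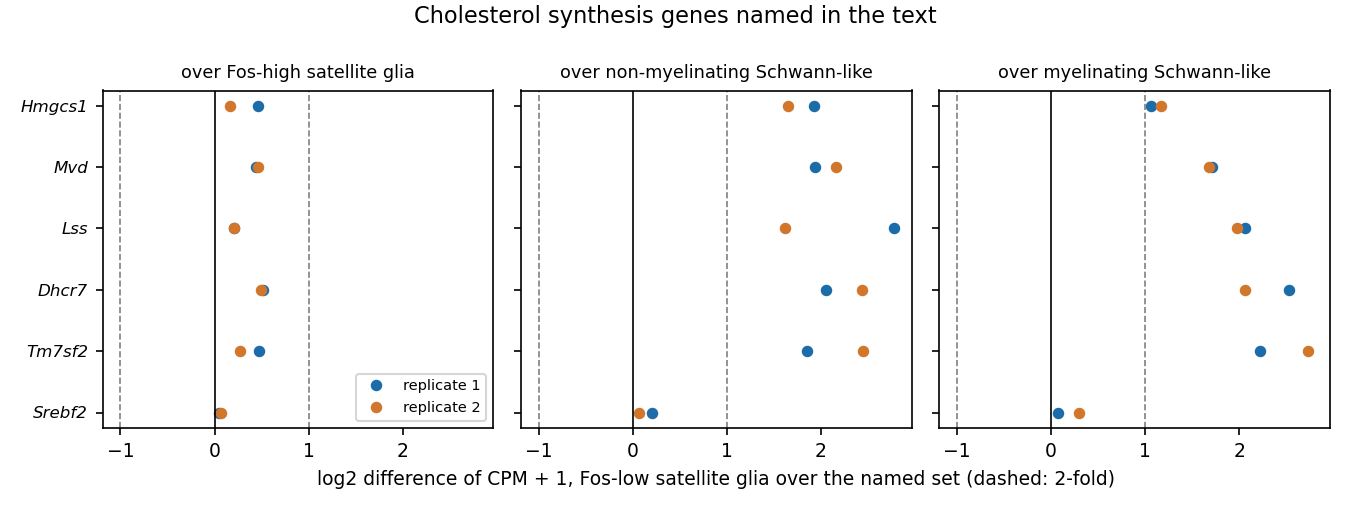
Log2 difference of CPM plus 1 for the cholesterol synthesis genes named in the text, in Fos-low satellite glia over 3 other sets, with 1 point per library and dashed lines at 2-fold. Both points of Hmgcs1 lie beyond 2-fold against each Schwann-like set, at 1.93 and 1.65 against the non-myelinating and at 1.06 and 1.17 against the myelinating one, and Srebf2 was not called in any panel.

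The window upstream of the Hmgcs1 start is shown because this gene was the most abundant early enzyme of the group. It covers chr13:119690101-119690350 on the plus strand of GRCm38.p6, the build that mm10 names, from RefSeq, and capitals mark CACCCCAC, the core letters of a sterol element.

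Hmgcs1: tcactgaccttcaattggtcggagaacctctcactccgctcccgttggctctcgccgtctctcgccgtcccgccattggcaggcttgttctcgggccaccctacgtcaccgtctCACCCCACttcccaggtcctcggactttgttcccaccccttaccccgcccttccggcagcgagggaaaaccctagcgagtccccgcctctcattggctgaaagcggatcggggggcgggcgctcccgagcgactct

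The capitals lie 136 to 129 bases before the start. Searched on both strands in the 250 bases upstream of the start, CACCCCAC occurred in 2 of the 19 cholesterol synthesis genes with a window, against 2.98% of 27025 genes with 1 or more windows. A match describes letters only.

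Fatty acid binding proteins and lipid genes differed from gene to gene. Crabp1, a retinoic acid binding protein of the same family as Fabp7, had 103 and 134 CPM in Fos-low satellite glia, against 20.2 and 18.3 CPM in non-myelinating and 0.984 and 3.54 CPM in myelinating Schwann-like barcodes. Fabp5 had 760 and 907 CPM and was not called, with 964 and 2011 CPM in non-myelinating and 294 and 688 CPM in myelinating Schwann-like barcodes. Fabp3 had 16.2 and 21.5 CPM and was under the floor in part of the comparisons. Fabp5 was therefore between the Schwann-like sets.

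Among 36 genes of lipoprotein and lipid handling, Apoc1 had 137 and 73.1 CPM in Fos-low satellite glia, against 16.4 and 10.2 CPM in non-myelinating and 6.56 and 4.71 CPM in myelinating Schwann-like barcodes. Vldlr, a receptor for apolipoprotein E particles, had 210 and 176 CPM, against 67.1 and 63.0 CPM and 36.7 and 36.5 CPM. Of those compared, 5 of 25 were higher and 1 lower than in non-myelinating Schwann-like barcodes, where 3.57% and 7.24% of all genes were. With TMM scaling the 5 became 9. Against myelinating Schwann-like barcodes 7 of 25 were higher and 1 lower, where 6.91% and 7.35% of all genes were.

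Potassium buffering genes were split between directions. Kcnj10, whose levels are given above, was a marker of the scoring and was left out of the Schwann-like comparisons. Kcnj16, the channel subunit that joins it, had 23.8 and 27.2 CPM in Fos-low satellite glia, against 1.27 and 2.03 CPM in non-myelinating and 1.31 and 1.18 CPM in myelinating Schwann-like barcodes. Kcnn4, a calcium-activated potassium channel, had 180 and 200 CPM, against 62.0 and 69.1 CPM and 8.20 and 21.2 CPM. The chloride cotransporter Slc12a2 had 495 and 599 CPM, against 153 and 260 CPM and 259 and 247 CPM, and was higher than in the non-myelinating set but not called against the myelinating set, where it was called with TMM scaling.

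Kcna1, a voltage-gated potassium channel, went the other way, with 72.3 and 55.0 CPM in Fos-low satellite glia against 1399 and 725 CPM in non-myelinating and 1212 and 1091 CPM in myelinating Schwann-like barcodes. Of 13 genes compared with the non-myelinating set 3 were higher and 3 lower (3.57% and 7.24% of all genes), and of 14 compared with the myelinating set 5 were higher and 5 lower (6.91% and 7.35% of all genes). With TMM scaling, which moves the median of all genes upward by 0.34 and 0.20, these counts became 3 and 2, and 6 and 3. TMM moved the median by 0.17 against all other non-neuronal barcodes and by 0.05 against Fos-high satellite glia.

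Gap junction genes couple satellite glia to one another. Gja1, the connexin of astrocytes and satellite glia, had 193 and 170 CPM in Fos-low satellite glia, against 36.7 and 67.0 CPM in non-myelinating and 7.87 and 30.6 CPM in myelinating Schwann-like barcodes. Gjc3, a connexin of Schwann cells and oligodendrocytes, had 162 and 97.9 CPM, against 454 and 207 CPM and 491 and 371 CPM, and was no longer called against the non-myelinating set with TMM scaling. Gjb1, the connexin of myelinating Schwann cells, had 2.55 and 2.66 CPM against 133 and 131 CPM in the myelinating set. Gja1 was not particular to satellite glia. A UMI of it after thinning was seen in 29.1% and 26.4% of Fos-low satellite glia and in 29.7% and 42.3% of endothelial-like barcodes (70.9% and 64.0%, and 69.7% and 77.0%, unthinned). Against all other non-neuronal barcodes 0 of 4 gap junction genes were higher and 2 lower (2.77% and 11.6% of all genes).

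Genes for glutamate and GABA handling also differed. Slc1a3, a glial glutamate transporter, had 95.5 and 72.5 CPM in Fos-low satellite glia, against 10.1 and 18.3 CPM in non-myelinating and 14.8 and 25.9 CPM in myelinating Schwann-like barcodes. Glul, which turns glutamate into glutamine, had 350 and 368 CPM, against 75.9 and 132 CPM and 137 and 106 CPM, and a UMI of it after thinning was seen in 43.6% and 45.0% of Fos-low satellite glia against 80.5% and 75.5% of endothelial-like barcodes (82.2% and 81.1% against 94.3% and 91.3% unthinned). Abat, which breaks down GABA, had 98.8 and 97.0 CPM, against 35.4 and 46.7 CPM and 44.3 and 41.2 CPM.

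Over the glutamate and GABA list, 5 of 12 genes were higher and 2 lower than in non-myelinating Schwann-like barcodes (3.57% and 7.24% of all genes). With TMM scaling the 2 became 0. Against myelinating Schwann-like barcodes 6 of 13 were higher and 2 lower (6.91% and 7.35% of all genes). Entpd2, an enzyme that breaks down extracellular ATP, had 143 and 153 CPM in Fos-low satellite glia, against 671 and 357 CPM in non-myelinating and 14.4 and 33.0 CPM in myelinating Schwann-like barcodes. It was lower than in the non-myelinating set, a call lost with TMM scaling, and higher than in the myelinating set.

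Notch receptors release a fragment that joins RBPJ on DNA and switches on repressors of the Hes and Hey families. Hey2, one such repressor, had 262 and 251 CPM in Fos-low satellite glia, against 59.5 and 58.9 CPM in non-myelinating and 17.7 and 29.5 CPM in myelinating Schwann-like barcodes. Nrarp, a feedback inhibitor of the pathway, had 131 and 165 CPM, against 6.33 and 28.4 CPM and 9.51 and 28.3 CPM. The ligand Jag1 had 121 and 130 CPM, against 21.5 and 34.5 CPM and 13.4 and 30.6 CPM. Heyl had 30.0 and 33.9 CPM, against 2.53 and 2.03 CPM and 1.31 and 3.54 CPM.

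Hes5 was nearly absent from Schwann-like barcodes. It had 1400 and 615 UMIs in Fos-low satellite glia, against 0 and 2 UMIs in non-myelinating and 2 and 2 UMIs in myelinating Schwann-like barcodes, where the count of 0 allows up to 3.80 CPM. It was a scoring marker, so this contrast follows in part from the choice of sets. The receptor Notch1 was close to the non-myelinating set, at 156 and 186 CPM against 151 and 165 CPM. Of 13 Notch pathway genes compared with the non-myelinating set 4 were higher and 1 lower (3.57% and 7.24% of all genes), and of 14 compared with the myelinating set 5 were higher and 2 lower (6.91% and 7.35% of all genes). The 1 lower gene is near the share over all genes.

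Hes1, the close relative of Hes5, was lower in Fos-low satellite glia in all 4 comparisons. It had 83.6 and 46.0 CPM, against 206 and 95.7 CPM in Fos-high satellite glia, 202 and 171 CPM in non-myelinating, 230 and 105 CPM in myelinating Schwann-like and 328 and 122 CPM in all other non-neuronal barcodes. The log2 difference from Fos-high satellite glia was −1.16 ± 0.18 (SD, n = 2 libraries). With TMM scaling it stayed called against Fos-high satellite glia and all other non-neuronal barcodes but not against the Schwann-like sets, where the smaller differences became −0.89 and −0.92.

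The Hes5 window is shown because Hes5 ranked first by the naming rule against all other non-neuronal barcodes. It covers chr4:154960673-154960922 on the plus strand of GRCm38.p6, from RefSeq, and capitals mark TGGGAA, the core letters bound by RBPJ, or its reverse complement.

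Hes5: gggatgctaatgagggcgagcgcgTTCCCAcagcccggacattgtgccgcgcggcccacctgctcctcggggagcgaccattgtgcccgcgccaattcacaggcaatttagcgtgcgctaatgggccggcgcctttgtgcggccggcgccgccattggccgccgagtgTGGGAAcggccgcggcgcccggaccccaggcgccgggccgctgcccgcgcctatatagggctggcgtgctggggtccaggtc

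The matches lie 226 to 221 bases before the start on the minus strand and 82 to 77 bases before it on the plus strand. TGGGAA occurred on either strand in 24.1% of 27025 genes with a window, and in 6 of the 23 Notch pathway genes that have one.

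The leading genes against non-myelinating Schwann-like barcodes, the cells that bundle thin axons, included several named above. Of 6496 genes 232 were higher and 470 lower, and with TMM scaling 384 were higher and 241 lower. Cdh15 had 1658 UMIs in Fos-low satellite glia against 2 in non-myelinating Schwann-like barcodes, a ratio of CPM of 39.3 (exact 95% counting interval 10.9 to 324). Mlc1 had 1507 against 3, a ratio of 23.8 (8.12 to 115). Slc4a4, a sodium bicarbonate cotransporter, was the most abundant, at 588 and 739 CPM against 46.8 and 95.5 CPM. Slc7a2, a transporter of arginine and lysine, had 207 and 222 CPM against 15.2 and 24.4 CPM, and Ctnnd2, a catenin, had 310 and 381 CPM against 24.0 and 46.7 CPM. Aqp4, Rlbp1 and Pgf, a growth factor of the VEGF family, completed the set.

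On the lower side stood Emp1, a membrane protein related to Pmp22, with 1.84 and 17.0 CPM in Fos-low satellite glia against 195 and 731 CPM, and the noncoding RNA Meg3, with 55.2 and 86.0 CPM against 907 and 1789 CPM. Atf3, a stress-induced factor, had 14.9 and 70.8 CPM against 1518 and 2165 CPM. Cxcl1, a chemokine for neutrophils, had 0.651 and 15.4 CPM against 170 and 256 CPM. Fcgr2b, Tnfsf9, Klf2 and Rasgef1c were the others. Atf3 and Klf2 are immediate early genes, of which 37 of 37 compared were lower here (7.24% of all genes). Low Fos chose Fos-low satellite glia but not this Schwann-like set, where Fos stood at 5212 and 8360 CPM. These calls follow in part from that choice. Emp1, Atf3 and Cxcl1 had more CPM in replicate 2 than in replicate 1 in both sets.

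Against myelinating Schwann-like barcodes 440 of 6368 genes were higher and 468 lower, and with TMM scaling 590 were higher and 327 lower. Cspg5, a neural proteoglycan, had 96.7 and 95.2 CPM in Fos-low satellite glia against 1.31 and 0 CPM, where the 0 allows up to 3.54 CPM. Spon1, a matrix protein that guides axons, had 1819 UMIs against 2, a ratio of CPM of 131 (36.2 to 1081), and Aqp4 had 2089 against 3, a ratio of 100.2 (34.2 to 486). Igfbp4, a binding protein for insulin-like growth factors, had 607 and 913 CPM against 13.8 and 34.2 CPM, and Fmo1, a flavin monooxygenase, had 257 and 292 CPM against 8.53 and 15.3 CPM. Crabp1, Mlc1 and Pgf were the remaining genes.

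Of 7 peripheral myelin genes compared with the myelinating set 5 were lower and 0 higher (7.35% and 6.91% of all genes). The count follows in part from choosing that set by myelin markers, which were themselves left out. Pou3f1, the transcription factor that starts myelination, had 15.9 and 19.9 CPM in Fos-low satellite glia against 760 and 1588 CPM. Gldn, which clusters sodium channels at nodes of Ranvier, had 1.52 and 1.50 CPM against 343 and 204 CPM. Emid1 had 2.01 and 1.62 CPM against 392 and 324 CPM, and Fxyd6, a regulator of the sodium pump, had 7.10 and 14.7 CPM against 830 and 711 CPM. Slc36a2, Arhgap19, Fam178b and Gjb1 completed the set. H2-K1, a class I histocompatibility gene, had 413 and 395 CPM against 64.6 and 151 CPM. Of 9 antigen presentation genes compared 4 were higher and 0 lower (6.91% and 7.35% of all genes). Of the same list, 0 of 10 were higher and 2 lower than in the non-myelinating set (3.57% and 7.24% of all genes). Against all other non-neuronal barcodes 0 of 14 were higher and 6 lower (2.77% and 11.6% of all genes).

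Within the satellite glia, Fos-low and Fos-high barcodes differed in few genes. Of 5878 genes compared, 68 were lower in Fos-low satellite glia (1.16%) and 0 were higher (0%), counts that follow from a split on Fos and are read only as a description. Of the 35 immediate early genes compared other than Fos, 32 were among the 68, with a median log2 difference of −2.03 against 0.01 over all genes compared. Without barcodes scoring highest for another class, an alternative added after the data were seen, 57 genes were lower, 50 of them among the 68.

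Among transcription factors, Egr1 had 104 and 210 CPM in Fos-low satellite glia against 1374 and 1809 CPM in Fos-high satellite glia. Jun, the partner of Fos in the AP-1 dimer, had 268 and 480 CPM against 2296 and 3102 CPM, a log2 difference of −2.89 ± 0.29 (SD, n = 2 libraries). Junb had 135 and 316 CPM against 1205 and 1785 CPM, Atf3 had 14.9 and 70.8 CPM against 228 and 453 CPM, and Klf2 had 7.76 and 43.0 CPM against 100.2 and 341 CPM. These genes were named for their fold between sets split on Fos, so the size of the differences follows in part from that choice. Jund, whose transcript is less inducible, differed less, with 285 and 367 CPM against 746 and 890 CPM.

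Several of the named genes act on transcripts or signals rather than on promoters. Zfp36, which binds and destabilises cytokine transcripts, had 26.8 and 127 CPM in Fos-low satellite glia against 527 and 1125 CPM, a log2 difference of −3.69 ± 0.78 (SD, n = 2 libraries). Dusp1, a phosphatase of MAP kinases, had 22.7 and 65.4 CPM against 254 and 394 CPM. Socs3, an inhibitor of cytokine receptors, had 37.0 and 193 CPM against 553 and 1130 CPM, and Btg2 had 41.4 and 113 CPM against 635 and 665 CPM. Ier2, Egr2 and Ccn1 completed the named genes, with 57.4 and 74.9, 5.21 and 28.3, and 19.6 and 65.7 CPM, against 444 and 482, 85.1 and 163, and 228 and 489 CPM. Dusp6, Btg1 and Cebpb were the 3 immediate early genes under 2-fold in 1 or both libraries.

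**Figure D4:**
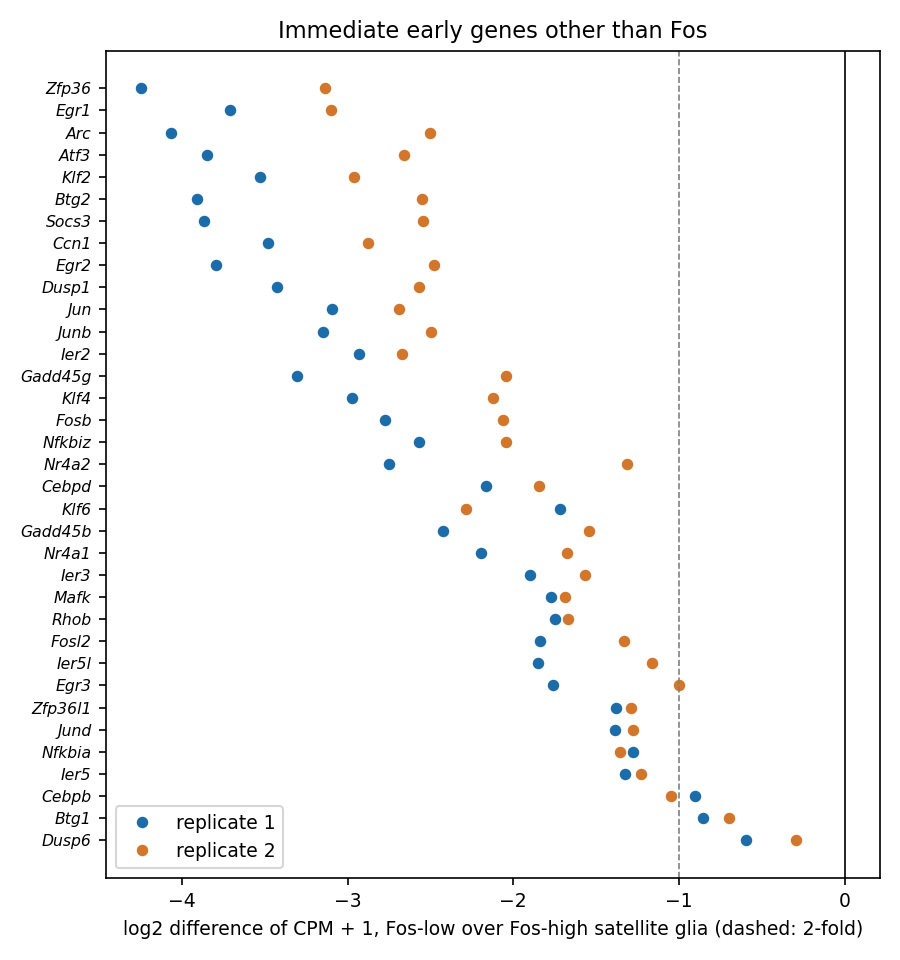
Log2 difference of CPM plus 1 for 35 immediate early genes other than Fos, Fos-low over Fos-high satellite glia, with 1 point per library and a dashed line at 2-fold. All points lie below 0, and 32 genes lie beyond 2-fold in both libraries.

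The Fos and Junb windows are shown because Fos made the split and Junb, of the same AP-1 family, differed with it. That of Fos covers chr12:85473640-85473889 on the plus strand and that of Junb chr8:84978749-84978998 on the minus strand of GRCm38.p6, from RefSeq. Capitals mark TGACG, the core letters of a cAMP response element.

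Fos: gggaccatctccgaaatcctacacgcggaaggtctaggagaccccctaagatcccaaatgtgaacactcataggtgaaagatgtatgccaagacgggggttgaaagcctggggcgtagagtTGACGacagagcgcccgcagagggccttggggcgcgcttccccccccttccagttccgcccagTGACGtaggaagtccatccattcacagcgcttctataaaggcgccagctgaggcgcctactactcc

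Junb: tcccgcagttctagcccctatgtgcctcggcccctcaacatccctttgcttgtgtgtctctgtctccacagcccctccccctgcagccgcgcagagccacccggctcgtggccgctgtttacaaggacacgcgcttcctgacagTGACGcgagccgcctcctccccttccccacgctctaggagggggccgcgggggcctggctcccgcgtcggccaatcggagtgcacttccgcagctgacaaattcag

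Fos holds matches at 129 to 125 and 66 to 62 bases before its start, and Junb holds 1 match at 106 to 102 bases. On either strand, TGACG occurred in 22 of the 38 immediate early genes with a window, or 57.9%, against 19.8% of all 27025 genes. This is a count of letters and says nothing of binding.

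Outside the immediate early genes, 3 of 17 heat shock genes were lower in Fos-low satellite glia (1.16% of all genes). Hspa1a, an inducible chaperone, had 138 and 96.1 CPM against 2285 and 253 CPM in Fos-high satellite glia, and Hspa1b had 99.6 and 89.4 CPM against 1791 and 226 CPM. Dnajb1, its cochaperone, had 31.2 and 49.0 CPM against 662 and 275 CPM. The level in Fos-high satellite glia of replicate 1 was several times that of replicate 2 for Hspa1a and Hspa1b. The Fos-high barcodes of replicate 1 also held 6354 CPM of myelinating Schwann, 2589 CPM of neutrophil and 2032 CPM of erythroid markers. The part of these cells' transcripts in the result was not tested. The constitutive Hspa8 had 1032 and 1015 CPM against 1443 and 1437 CPM and was not called.

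The chemokine Cxcl10, a ligand of the T cell receptor CXCR3, had 82.5 and 238 CPM in Fos-low satellite glia against 368 and 1135 CPM in Fos-high satellite glia. Cxcl12 had 2.77 and 6.48 CPM against 25.6 and 26.5 CPM, beside 3069 and 1301 CPM in endothelial-like barcodes. The 10 endothelial markers summed to 33.5 and 85.7 CPM in Fos-low against 260 and 207 CPM in Fos-high satellite glia, and their part in this result was not tested. Irf1, a transcription factor of interferon signalling, had 22.5 and 87.8 CPM against 88.9 and 439 CPM. Irf1 was the single called gene of 20 of the interferon response. Over all 5878 genes compared 1.16% were lower and 0% higher, so lists of this size would hold few or no called genes. No gene of potassium buffering, glutamate and GABA handling, lipid handling, adhesion and matrix or oxidative phosphorylation was called, and the median log2 difference of these lists lay between 0.01 and 0.20. Ednrb had 1050 and 949 CPM against 1244 and 1017 CPM, and Kcnj10 had 297 and 269 CPM against 279 and 265 CPM.

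When all Fabp7-high barcodes were ordered by Fos in 5 steps, the immediate early genes followed the step that Fos defined. The steps held no Fos UMI, under 5, 5 to 20, 20 to 60, and 60 or more per 10000, of which the first 3 are Fos-low satellite glia. Jun stood at 142, 256, 898, 1991 and 4409 CPM over the steps in replicate 1, and at 195, 243, 793, 2270 and 4010 CPM in replicate 2. At a given step the libraries were close in Jun, while other immediate early genes were close at some steps and apart at others. Egr1 stood at 106 and 112 CPM in the step under 5, and Ccn1 at 579 and 574 CPM in the last step. With no Fos UMI, Socs3 stood at 15.7 and 71.0 CPM, Fosb at 22.1 and 58.3 CPM and Ccn1 at 7.96 and 27.9 CPM. Atf3 stood at 5.60 CPM in the lowest and 632 CPM in the highest step of replicate 1, and at 33.5 and 615 CPM in those of replicate 2.

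Over the same steps Hes5 was lowest and Hes1 highest in the last. Hes5 stood at 75.6, 79.6, 66.9, 57.8 and 41.8 CPM over the steps of replicate 1 and at 86.2, 69.4, 67.8, 55.9 and 32.5 CPM over those of replicate 2. Hes1 stood at 73.2, 79.95, 143, 191 and 304 CPM in replicate 1 and at 43.1, 38.5, 53.9, 82.2 and 110 CPM in replicate 2. Apoe was lowest in the highest step, at 68960 and 82798 CPM, and highest where Fos had no UMI, at 98168 and 99529 CPM. Acsbg1 stood at 155 and 384 CPM in the highest and at 386 and 562 CPM in the lowest step. The highest step of replicate 1 held 20 barcodes, so its levels rest on few cells.

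Hspa1a separated the libraries, with 46.3, 100.5, 675, 1830 and 5435 CPM over the steps of replicate 1 and 63.0, 58.2, 142, 226 and 283 CPM over those of replicate 2. At the third step Cxcl10 had 108 CPM in replicate 1 and 404 CPM in replicate 2. In the step with no Fos UMI it had 81.1 and 112 CPM, and in the last step 1319 and 1223 CPM. Kcnj10 showed no steady order and lay between 215 and 322 CPM in replicate 1 and between 249 and 289 CPM in replicate 2.

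**Figure D5:**
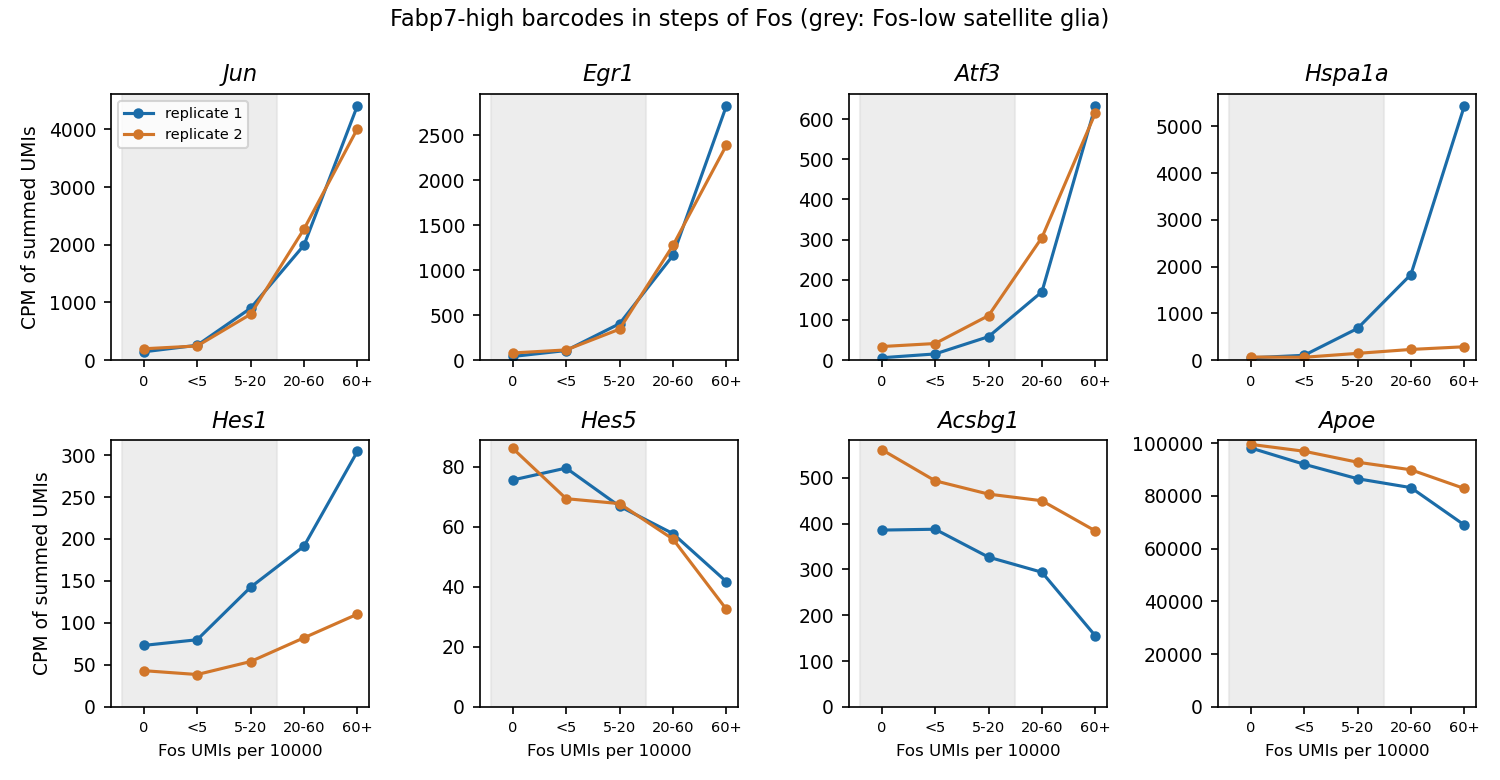
Levels of 8 genes in CPM of summed UMIs over 5 steps of Fos UMIs per 10000 among Fabp7-high non-neuronal barcodes, with 1 line per library. Grey marks the steps that are Fos-low satellite glia. Jun reaches 4409 and 4010 CPM in the last step, while Hspa1a reaches 5435 CPM in replicate 1 and 283 CPM in replicate 2.

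Between the libraries, Fos-low satellite glia of replicate 1 and replicate 2 differed in 128 of 6217 genes at 2-fold (2.06%), with 34 higher (0.547%) and 94 lower (1.51%) in replicate 1. With 1 library a side this difference has no replicate check. Of 33 immediate early genes compared, 23 were lower in replicate 1, among them Socs3 with 37.0 CPM in replicate 1 and 193 CPM in replicate 2, and Gadd45g with 16.9 and 87.0 CPM. Ccl2, a chemokine for monocytes, had 2.71 CPM in replicate 1 and 51.2 CPM in replicate 2. Hbb-bt and Hba-a2, globin genes of red cells, had 30.3 and 210 CPM and 61.1 and 280 CPM.

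Interferon response genes went the opposite way, with 6 of 18 higher and 1 lower in replicate 1 (0.547% and 1.51% of all genes). Ifi27l2a had 503 CPM in replicate 1 and 133 CPM in replicate 2, Isg15 had 232 and 113 CPM and Bst2 had 135 and 55.5 CPM. Irf1 was the gene lower in replicate 1. In endothelial-like barcodes Ifi27l2a had 167 and 118 CPM and Bst2 947 and 794 CPM, while Isg15 had 549 and 866 CPM, more in replicate 2. Rps29, a ribosomal protein gene, had 2133 and 636 CPM in Fos-low satellite glia and 3944 and 1185 CPM in endothelial-like barcodes. Atp5k, a subunit of ATP synthase, had 634 and 230 CPM and was the 1 called gene of 38 of oxidative phosphorylation. Lars2, a mitochondrial tRNA synthetase, had 658 and 118 CPM in Fos-low satellite glia and 519 and 112 CPM in endothelial-like barcodes. The cause of these differences was not tested. No cholesterol synthesis, Notch pathway, potassium buffering, lipid handling, or adhesion and matrix gene was called between the libraries, where 2.06% of all genes were.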

How the data were processed

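Values came from 2 libraries of 1 group. Per the submitters' processing notes and the labels, reads were handled with CASAVA 1.8 and Cell Ranger 5.0.1 on mm10. As deposited, each library is a table of unnormalized UMI counts over 31253 genes, and the deposited barcode and feature files hold labels of another kind. The annotation release and cell calling settings are not stated there. Replicates 1 and 2 held 113251556 and 102347251 UMIs in 8818 and 11767 barcodes.

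UMIs were summed per barcode set and library, divided by the total of that sum and given as CPM. A difference is log2 of CPM plus 1 over CPM plus 1 within each library, averaged over 2 libraries. No test was run, because every gene was counted in the barcodes that the rule chose. Genes are named for the comparison with all other barcodes and with Fos-high satellite glia, up to 12 a direction, and for the others up to 8, by the smaller fold of the libraries at 50 CPM or more, leaving out the rule's genes and unnamed loci. The members, the 19 gene lists and the comparisons were chosen with earlier results of these data known. Of 492 list genes, 2 are not in the files.

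Classes were the highest mean of z-scores over fixed markers (clipped at −3 and 5, at least 0.5) among barcodes with Fabp7 under 40 per 10000, a scoring rule chosen after the data were seen, and all class markers were left out of the Schwann-like comparisons. Doublets were not removed. As an alternative, the highest Scrublet scores were removed at 0.8% per 1000 barcodes, which marks 7.38% and 8.94% of Fos-low and 18.9% and 12.8% of Fos-high satellite glia. For shares of barcodes with a UMI, each barcode was thinned to 2000 UMIs, which left none out. Shares carry exact Clopper-Pearson 95% intervals, and a count of 0 is given the limit of 3 counts. Tools were edgeR 4.0.16 for TMM factors only, scanpy 1.11.5 for Scrublet, matplotlib 3.10.9, pandas 2.3.3, scipy 1.17.1 and numpy 2.4.6 under Python 3.11.15. Upstream windows came from RefSeq on GRCm38.p6, 32851 windows in all. A few genes of the lists count in the totals but are not reported here by name.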

Additional observations from a re-analysis of the deposited data

How the results depend on the processing

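Shares and counts of genes were recomputed with other limits on Fabp7, Fos, mitochondrial UMIs, depth and neuronal genes, without the highest Scrublet scores, and with other scalings, floors and folds. The mean share of quality-passing barcodes, 22.1% as given, fell to 9.74% at a neuronal limit of 10. It rose to 29.6% with at least 4000 UMIs, and lay between 19.1% and 23.6% with the other limits. Of non-neuronal barcodes, the mean share went from 36.0% to 45.6% and 40.7% with the same 2 changes. For single genes, 921 recomputed differences stayed within 1 SD of the value given and 159 moved by more, and 0 reversed. That SD is of 2 libraries and is wide where they differ. Leaving out 1 library cannot move a mean of 2 by more than it. The count of 921 is thus no measure of stability. With no floor on CPM, 2055 genes were lower than in all other barcodes, 1 higher and 137 lower than in Fos-high satellite glia, 524 and 975 against the non-myelinating and 803 and 797 against the myelinating Schwann-like set. With a floor of 50 CPM, 383, 45 and 255 genes were lower in the first 3 comparisons, 285 higher and 285 lower in the last, and 48 lower between the libraries. At 1.5-fold, 598 and 1215, 4 and 113, 436 and 1123, and 754 and 1006 genes were higher and lower in the 4 comparisons, and 167 and 240 between the libraries. TMM gave 384 and 241 against the non-myelinating set. A Fabp7 limit of 80 and a neuronal limit of 10 each gave 3 genes higher than in Fos-high satellite glia. Set against Fabp7-low barcodes alone, 523 genes were higher.

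Leaving out a replicate leaves 1 library, and the 2-fold rule then acts in that library alone. With 1 left out at a time, 202 to 519 genes were higher than in all other barcodes, 5 to 15 higher and 143 to 170 lower than in Fos-high satellite glia, 372 to 374 higher and 938 to 970 lower than in the non-myelinating set, and 558 to 720 higher and 774 to 818 lower than in the myelinating set. The genes higher than in Fos-high satellite glia numbered 5 without replicate 1 and 15 without replicate 2, against 0 with both. Both sets of each comparison come from the same library and each difference was taken within it. No fit with a replicate block was made, since no test was run. Depth limits genes under the floor of 20 CPM, and the 143 Fos-high barcodes of replicate 1 limit every difference from them.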

Other observations

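Counts of some genes also varied from barcode to barcode within Fos-low satellite glia. Over 1422 genes at 100 CPM or more in both libraries, the median ratio of variance to mean of UMIs scaled for depth was 1.04 in replicate 1 and 1.03 in replicate 2, close to that of counting alone. At a given relative spread this ratio rises with the level of a gene. Large ratios of abundant genes, such as Apoe and Fabp7, thus do not show relative spread alone. The genes named here were chosen after their values were seen. Among genes of glia, Apoe had ratios of 16.2 and 14.7, Fabp7, whose limit chose the barcodes, 8.99 and 6.90, and Cst3, a protease inhibitor, 4.08 and 6.78. Gatm, an enzyme of creatine synthesis, had 1.99 and 2.00, with 1344 and 1209 CPM in Fos-low satellite glia against 60.5 and 67.0 CPM in endothelial-like barcodes. Sostdc1, a secreted BMP and Wnt antagonist, had 1.79 and 1.76, with 848 and 719 CPM against 23.2 and 17.0 CPM.

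The largest ratio was that of the globin Hbb-bs, a red cell transcript, at 271 and 202. Apod had 24.0 and 25.9, and the nuclear noncoding RNA Malat1 had 26.0 and 22.6, so both stood above Apoe. Of the immediate early genes, Jun had 1.99 and 2.46.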
